A study of Mus musculus with 151 samples.

Results

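A group of 10 circadian clock genes was followed through 7 deposited count tables of a mouse study of conception by in vitro fertilization (IVF). The genes were taken by name as Arntl, Clock, Npas2, Per1, Per2, Per3, Cry1, Nr1d1, Nr1d2 and Dbp, 10 of the 35976 gene names that the tables hold, and each of the 10 was found in all 7 tables.

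The study compared F1 female offspring of CF-1 mothers and B6/SJL fathers that were conceived by mating (Natural) with offspring of the same cross conceived by IVF. The IVF embryos came from eggs of superovulated mothers, were cultured to the blastocyst stage and were carried by pseudopregnant recipients, whereas the Natural embryos developed without culture or transfer. Ovaries were sequenced at E18.5 (4 Natural, 6 IVF), at 12 weeks (4 Natural, 5 IVF) and at 39 weeks (5 Natural, 5 IVF). The study's results call them whole ovaries. Its methods took RNA from a portion of each frozen ovary, or from the entire gonad at E18.5. Germ cells and their neighbours were sequenced as pools of 100 primordial germ cells (PGCs) at E13.5 (4 Natural, 5 IVF), as single oocytes at 12 weeks (36 Natural, 40 IVF) and 39 weeks (9 Natural, 10 IVF), and as cumulus cells, the granulosa cells that surround the oocyte, at 12 weeks (5 Natural, 5 IVF). Groups carried no gene alteration in the labels. Oocytes and cumulus cells came from offspring that were themselves superovulated, with injections at a set time before collection. The 39-week Natural ovary replicate 5 is given as 40 weeks in part of its labels. The labels give E18.5 for both fetal groups, while the study's own text differs between its parts on whether the IVF fetuses were delivered later than the Natural ones. The adult females whose serum hormones were measured were killed at proestrus, but whether the sequenced ovaries came from them is not given in the sources used here. The animals lived under a light/dark cycle, and the clock time at which each sample was collected is not given there either.

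The circadian clock is a transcriptional feedback loop that runs in most tissues with a period close to the length of a day. ARNTL (also called BMAL1) pairs with CLOCK, or with its relative NPAS2, and drives E-box genes, among them the Per, Cry and Nr1d genes. PER and CRY proteins return to repress the pair, and the REV-ERB receptors encoded by Nr1d1 and Nr1d2 repress Arntl and Npas2. Dbp encodes an E-box driven activator of D-box genes, and its transcript, like that of Nr1d1, peaks in many tissues when Arntl is low. In the ovary, clock genes cycle in granulosa, theca and luteal cells, and ARNTL is needed there for normal steroid synthesis.

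The members' own promoters were searched for the short DNA words that clock factors are known to bind. RefSeq windows on GRCm38.p6 that run from 250 bases before to 50 bases after each start were available for 9 of the 10 members, in 13 windows. They were searched on both strands for the E-box CACGTG, the E-prime box CACGTT, the D-box as TTATGTAA or TTACGTAA, the ROR/REV-ERB element as TAGGTCA or TGGGTCA, and the cAMP response element TGACGTCA. None of these words overlapped another. The stretches that hold a match are shown so that these words can be seen in place. No binding was measured, and a match is a match of letters. They are read 5′ to 3′ along the gene, with the matching letters in capitals (AACGTG is the E-prime box on the opposite strand).

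Per3, chr4:151044796-151044890, minus strand, 2 D-boxes that start 205 and 158 bases before the gene start:
Per3: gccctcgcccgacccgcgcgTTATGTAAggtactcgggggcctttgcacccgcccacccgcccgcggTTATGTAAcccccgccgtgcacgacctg
Arntl, chr7:113207530-113207558, plus strand, a ROR/REV-ERB element 30 bases after the start:
Arntl: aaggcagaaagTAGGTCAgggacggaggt
Cry1, chr10:85185089-85185153, minus strand, an E-prime box and an E-box:
Cry1: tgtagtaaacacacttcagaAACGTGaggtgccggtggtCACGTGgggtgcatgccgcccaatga
Per1, chr11:69098763-69098808, plus strand, an E-box:
Per1: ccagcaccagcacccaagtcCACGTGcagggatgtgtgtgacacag
Nr1d1, chr11:98775380-98775425, minus strand, an E-prime box:
Nr1d1: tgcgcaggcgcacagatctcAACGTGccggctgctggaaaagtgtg

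Among 27025 genes with such a window, 8.09% held the E-box, 5.44% the E-prime box, 1.23% the D-box, 7.35% the ROR/REV-ERB element and 2.03% the cAMP response element, which no member held. Per3, with its 2 copies, was the single member with the D-box, the least common of these words. The windows of Clock, Npas2, Nr1d2 and Dbp held none of them, which says only that these letters are not in these windows.

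Values are CPM, the count of a gene scaled by the total of its library times the TMM factor of that library, which edgeR sets from the bulk of the genes. Total counts ran from 6995713 to 14830788 in E18.5 ovaries, from 2839022 to 43363799 at 12 weeks and from 18079970 to 38751638 at 39 weeks. The shallowest ovary library, 12-week IVF replicate 4, stood far below the next ones of its age. Differences are log2 changes of IVF minus Natural with their standard error, from the quasi-likelihood test of edgeR across all genes of a table, and a gene was called at a Benjamini-Hochberg adjusted p below 0.05. The labels do not say which libraries shared a litter, so these p-values measure the spread between samples. In ovary tissue, fewer cells of a type and less RNA per cell cannot be told apart.

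At 12 weeks members lay on both sides in the comparison of IVF with Natural ovaries. Dbp, Nr1d1, Nr1d2 and Per3 had higher means in IVF ovaries, and Arntl, Npas2 and Cry1 had lower ones, each with an unadjusted p under the threshold. After adjustment over 17628 genes edgeR called no member, in a comparison in which it called 0.00567% of all genes, a single one. At an unadjusted p below 0.05 the members counted 7 of 10, 4 higher and 3 lower, where 14.4% of all genes did.

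Dbp, the D-box activator, measured 14.9, 18.6, 31.3 and 47.4 CPM in Natural replicates 1 to 4 and 110, 79.4, 116, 50.7 and 64.8 CPM in IVF replicates 1 to 5. Every IVF library lay above every Natural one, although IVF replicate 4 and Natural replicate 4 were close. The means were 28.0 ± 14.7 CPM (SD, n = 4) and 84.2 ± 28.3 CPM (SD, n = 5). The log2 difference was 1.59 with a standard error of 0.36 (edgeR p = 0.00138, adjusted p = 0.152).

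The REV-ERB receptors, which silence Arntl and Npas2, were placed on the same side. Nr1d2 measured 46.5, 53.5, 71.0 and 75.6 CPM in Natural ovaries and 144, 97.7, 127, 92.0 and 123 CPM in IVF ovaries. The groups did not overlap, and the log2 difference was 0.92 with a standard error of 0.18 (edgeR p = 0.000413, adjusted p = 0.142). Nr1d1 measured 41.3, 34.5, 54.1 and 83.7 CPM in Natural ovaries and 122, 113, 102, 46.0 and 108 CPM in IVF ovaries. Here the shallow IVF replicate 4 fell among the Natural libraries, and the log2 difference was 0.89 with a standard error of 0.31 (edgeR p = 0.0167, adjusted p = 0.250).

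The activators that pair with each other or with CLOCK lay on the other side. Npas2 measured 18.9, 13.9, 14.0 and 9.69 CPM in Natural ovaries and 7.70, 7.48, 3.07, 4.73 and 8.32 CPM in IVF ovaries. No IVF library reached the lowest Natural one, and the log2 difference was -1.14 with a standard error of 0.30 (edgeR p = 0.00358, adjusted p = 0.173). Arntl measured 23.8, 22.1, 16.5 and 18.8 CPM in Natural ovaries and 12.2, 15.7, 10.6, 7.78 and 16.6 CPM in IVF ovaries. The groups met at their edges, where IVF replicate 5 was just above Natural replicate 3, and the log2 difference was -0.66 with a standard error of 0.22 (edgeR p = 0.0122, adjusted p = 0.229). Clock, whose transcript cycles little in most tissues, ranged from 81.2 to 95.2 CPM in Natural ovaries and from 66.3 to 107 CPM in IVF ovaries.

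The repressors did not share a direction. Per3 measured 15.2, 14.2, 29.2 and 23.2 CPM in Natural ovaries and 41.3, 44.8, 39.8, 31.4 and 27.5 CPM in IVF ovaries, a log2 difference of 0.86 with a standard error of 0.24 (edgeR p = 0.00462, adjusted p = 0.182). Natural replicate 3 stood above IVF replicate 5, and otherwise the groups were separate. Cry1 measured 25.7, 28.5, 32.6 and 23.6 CPM in Natural ovaries and 16.3, 19.9, 21.1, 21.0 and 22.7 CPM in IVF ovaries, without overlap, a log2 difference of -0.45 with a standard error of 0.14 (edgeR p = 0.00733, adjusted p = 0.206). Per1, at 66.5 to 92.8 and 52.7 to 103 CPM, and Per2, at 20.1 to 47.0 and 14.8 to 31.1 CPM, overlapped widely, with unadjusted p-values of 0.707 and 0.212 by edgeR.

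The groups did not overlap for 4 members, Npas2, Cry1, Nr1d2 and Dbp, beside 6.09% of all genes. DESeq2, the tool of the study, gave adjusted p-values of 0.0130 for Npas2, 0.0358 for Per3, 0.00101 for Nr1d2 and 0.00191 for Dbp in the same libraries, and thus called 4 members, with 3.96% of all genes called. The call of these 4 members therefore depends on the tool.

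**Figure D1:**
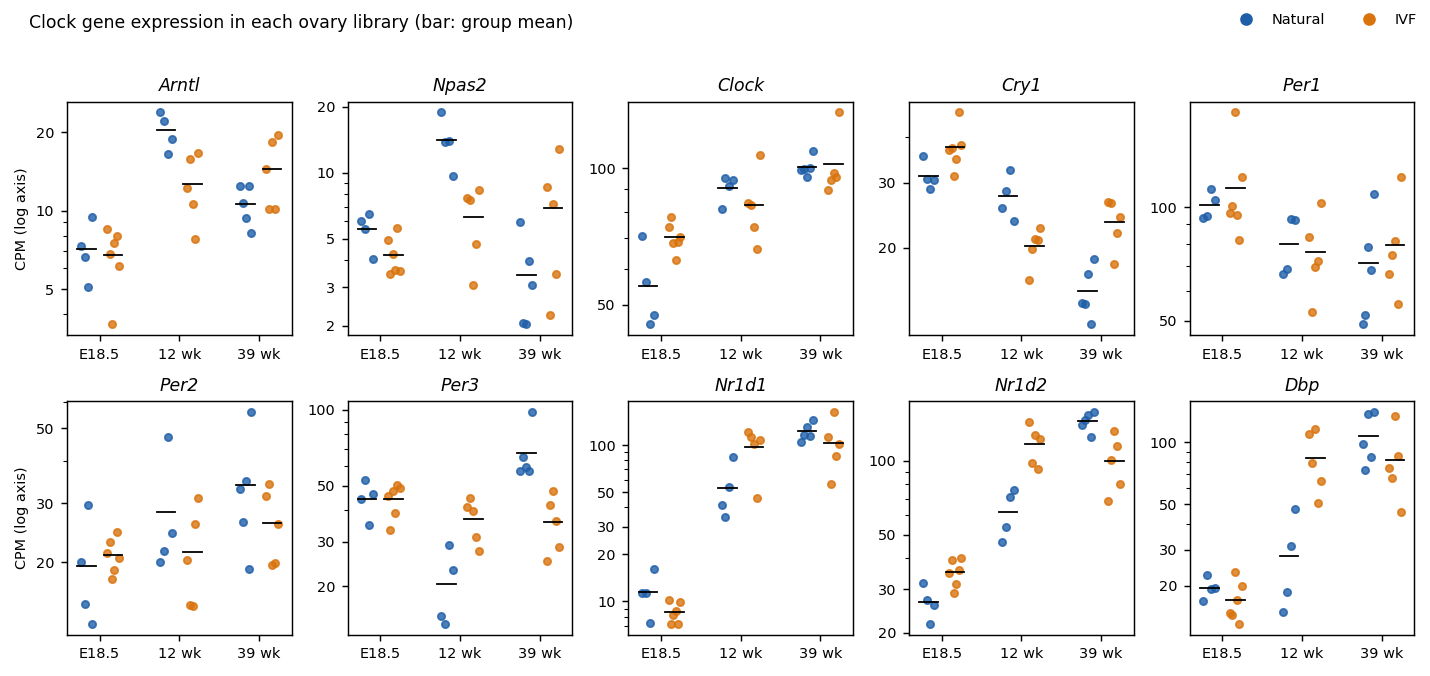
CPM on log axes for each of the 10 clock genes in every ovary library by age, with Natural in blue, IVF in orange and the group mean as a bar. At 12 weeks every IVF library lay above every Natural one for Dbp and Nr1d2 and below every one for Npas2 and Cry1, while at 39 weeks Per3 lay lower in every IVF library.

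Some markers of other cells moved with the groups at 12 weeks. The summed level of 8 genes of oviduct and surface epithelium was 3520 to 7820 CPM in Natural ovaries and 87.7 to 3110 CPM in IVF ovaries, with 8 of 8 genes lower in IVF, 6 of them at an unadjusted p below 0.05, and no gene of the list at 0. That of 6 granulosa genes was 1270 to 1730 CPM against 1550 to 3390 CPM, with 5 higher in IVF, 1 lower and 2 at that p. Luteal genes summed to 6430 to 14800 CPM against 4820 to 20000 CPM, with 5 of 5 higher and 0 at that p. Oocyte genes summed to 104 to 228 CPM against 133 to 323 CPM, with 7 of 7 higher and 1 at that p. The part of these cells in the members' differences was not tested.

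At 39 weeks each of these 7 genes had a fitted difference of the opposite sign. Of the 10 members, edgeR called none, where it called 0.262% of all 17186 genes. At an unadjusted p below 0.05, 3 members counted, Cry1 higher and Per3 and Nr1d2 lower in IVF, beside 19.2% of all genes.

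Per3 measured 57.4, 64.8, 59.5, 57.1 and 98.2 CPM in Natural ovaries and 25.2, 42.0, 47.7, 36.5 and 28.6 CPM in IVF ovaries. It was the single member whose groups did not overlap, beside 5.11% of all genes, and its log2 difference was -0.90 with a standard error of 0.21 (edgeR p = 0.00119, adjusted p = 0.0861). Cry1 measured 14.1, 14.0, 16.9, 12.4 and 18.7 CPM in Natural ovaries and 26.6, 26.5, 18.1, 21.9 and 24.2 CPM in IVF ovaries. Only IVF replicate 3 fell below a Natural library, replicate 5, and the log2 difference was 0.62 with a standard error of 0.15 (edgeR p = 0.00191, adjusted p = 0.0954). Nr1d2 measured 140, 146, 153, 125 and 158 CPM in Natural ovaries and 68.8, 100, 132, 115 and 80.1 CPM in IVF ovaries, a log2 difference of -0.54 with a standard error of 0.17 (edgeR p = 0.00774, adjusted p = 0.138).

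Npas2 measured 5.93, 2.05, 2.03, 3.96 and 3.06 CPM in Natural ovaries and 8.60, 2.23, 7.20, 3.45 and 12.9 CPM in IVF ovaries. In 3 IVF libraries the level lay above all Natural ones and in the other two among them, and the log2 difference was 1.01 with a standard error of 0.48 (edgeR p = 0.0606, adjusted p = 0.278). Arntl measured 12.4, 10.7, 9.36, 12.4 and 8.20 CPM in Natural ovaries and 14.4, 10.2, 18.3, 10.1 and 19.5 CPM in IVF ovaries, and the 3 IVF libraries that were high for Npas2 were also the 3 that were high for Arntl. The difference of Arntl was 0.45 with a standard error of 0.22 on the log2 scale (edgeR p = 0.0712). Dbp measured 97.6, 73.4, 137, 85.0 and 140 CPM in Natural ovaries and 75.0, 67.0, 135, 85.3 and 45.8 CPM in IVF ovaries, which overlapped, and its log2 difference was -0.39 with a standard error of 0.28 (edgeR p = 0.191). Nr1d1, Per1, Per2 and Clock had unadjusted p-values from 0.204 to 0.876.

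DESeq2 called 3 members at 39 weeks, with adjusted p-values of 0.00249 for Per3, 0.00657 for Cry1 and 0.0362 for Nr1d2, beside 7.71% of all genes. IVF replicate 1 held 8970 CPM of the oviduct and surface epithelium genes, against 54.0 to 232 CPM in the Natural ovaries. Without it the log2 differences were -0.80 for Per3, 0.57 for Cry1, -0.44 for Nr1d2 and 0.92 for Npas2. With it they were -0.90, 0.62, -0.54 and 1.01. Luteal genes summed to 10800 to 18800 CPM in Natural and 6580 to 15500 CPM in IVF ovaries, with 4 of 5 genes lower and 1 of them at an unadjusted p below 0.05, and granulosa genes to 680 to 1620 CPM and 1110 to 3140 CPM, with 6 of 6 higher and 2 at that p. No gene of these 3 lists was at 0 throughout. The part of epithelial, luteal and granulosa cells in the members' differences was not tested.

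Whether the difference between IVF and Natural ovaries itself changed with age was tested in 1 fit of all 29 ovary libraries. Of the 10 members 5 were called for 39 weeks minus 12 weeks, in a test that called 2.71% of 19724 genes. Npas2 and Cry1 had a difference that rose with age, and Per3, Nr1d2 and Dbp one that fell. An unadjusted p below 0.05 was found for 7 members, beside 20.0% of all genes.

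By the size of p, Nr1d2 stood at place 6, Per3 at 8 and Cry1 at 11 among 19724 genes. For Nr1d2 the IVF difference fell by 1.46 on the log2 scale with a standard error of 0.24 (edgeR adjusted p = 0.00785). For Per3 it fell by 1.76 with a standard error of 0.30 (edgeR adjusted p = 0.00881), and for Dbp it fell by 1.98 with a standard error of 0.42 (edgeR adjusted p = 0.0212). For Cry1 it rose by 1.07 with a standard error of 0.19 (edgeR adjusted p = 0.0116), and for Npas2 by 2.16 with a standard error of 0.53 (edgeR adjusted p = 0.0337).

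Arntl, at 1.12 with a standard error of 0.34 (edgeR adjusted p = 0.0664), and Nr1d1, at -1.13 with a standard error of 0.37 (edgeR adjusted p = 0.0789), missed the threshold. Clock, Per1 and Per2 had values of 0.14, 0.24 and 0.04, each below its standard error. Per3, Cry1, Nr1d2 and Dbp were called whichever of the 19 adult libraries was left out. Npas2 was not called in 8 of these 19 fits, at adjusted p-values of 0.0509 without 12-week IVF replicate 1, 0.0629 without IVF replicate 3, 0.0673 without Natural replicate 1 and 0.0699 without Natural replicate 3. At 39 weeks they were 0.0614 without IVF replicate 1, 0.0517 without Natural replicate 2, 0.0548 without Natural replicate 4 and 0.0602 without Natural replicate 5. Arntl was called without 39-week IVF replicate 2 (adjusted p = 0.0412) or replicate 4 (0.0410), and Nr1d1 without 12-week IVF replicate 4 (0.0388), 12-week Natural replicate 4 (0.0423) or 39-week IVF replicate 3 (0.0302). Over these 19 fits edgeR called 80 to 1111 of all genes.

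**Figure D2:**
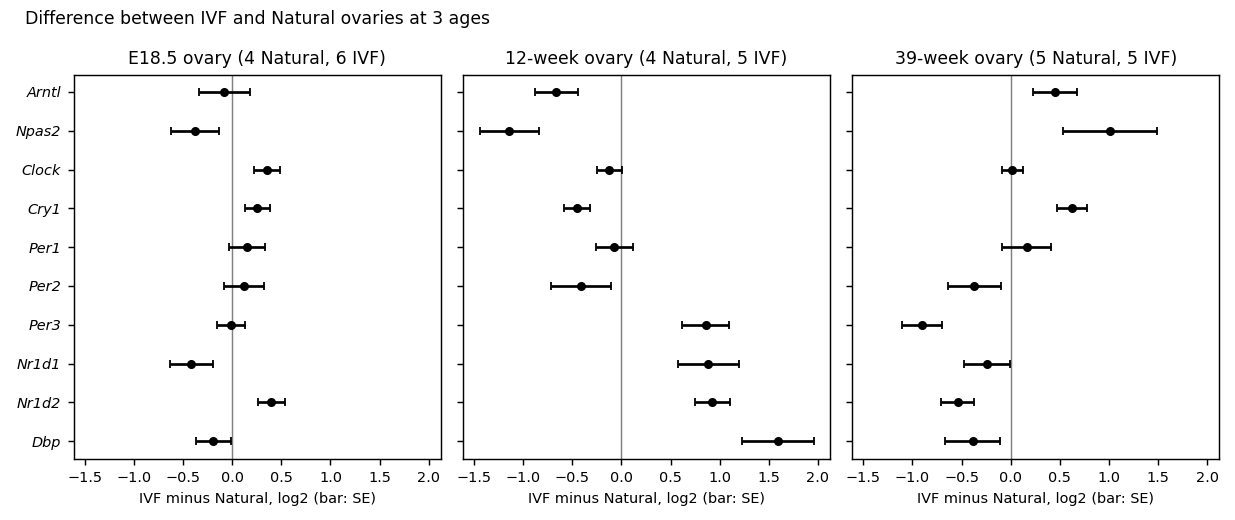
Log2 difference of IVF minus Natural for each clock gene at each of the 3 ages, as points with bars of 1 standard error from the edgeR fit of each age. Dbp was at 1.59 at 12 weeks and -0.39 at 39 weeks, and Npas2 at -1.14 and 1.01.

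Some of the marker levels given above moved with the groups at both adult ages. Without 39-week IVF replicate 1, the ovary with the high epithelial level, the 4 members other than Npas2 were called with values of -1.65 for Per3, 1.04 for Cry1, -1.34 for Nr1d2 and -1.94 for Dbp. The clock hour of collection was not tested.

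Of 24 other genes of the clock, 2 were called in the test of 39 weeks minus 12 weeks, and both belong with Dbp to the D-box activators. Tef had a value of -0.88 with a standard error of 0.20 (edgeR adjusted p = 0.0279), and Hlf of -1.36 with a standard error of 0.33 (edgeR adjusted p = 0.0337). In IVF ovaries their log2 differences were 0.58 and 0.93 at 12 weeks and -0.30 and -0.43 at 39 weeks, none of them called by edgeR, while DESeq2 called Tef at 12 weeks (adjusted p = 0.0217). The third D-box factor, the repressor Nfil3, was not called by either tool in an ovary table. Over the 24 genes the median difference between the ages was 0.09, beside 0.00 over all genes, and over the 10 members, which moved both ways, it was also 0.09. None of those that passed the filter was called by edgeR in an IVF comparison of any single table, and DESeq2 called 1 at E18.5, 2 at 12 weeks, 2 at 39 weeks and 1 in oocyte sets.

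At E18.5 the members lay closer together. None was called by edgeR, which called 5.43% of 16415 genes, and none by DESeq2, which called 12.0%. Clock and Nr1d2 had an unadjusted p below 0.05, beside 24.1% of all genes, and no member's groups were free of overlap, beside 8.61%.

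Nr1d2 measured 31.7, 27.2, 21.6 and 26.0 CPM in Natural ovaries and 28.9, 35.4 and 40.0 CPM as the lowest, median and highest of IVF ovaries, a log2 difference of 0.40 with a standard error of 0.14 (edgeR p = 0.0130, adjusted p = 0.105). Clock measured 71.0, 56.2, 45.3 and 47.4 CPM in Natural ovaries and 62.7, 69.6 and 78.1 CPM as the lowest, median and highest of IVF ovaries, a log2 difference of 0.36 with a standard error of 0.13 (edgeR p = 0.0173, adjusted p = 0.121). Natural replicate 1 was the high one for both genes. Without it edgeR called Clock, at 0.50 (adjusted p = 0.0148), and Nr1d2, at 0.49 (adjusted p = 0.0394). The number of all genes called also depended on the library left out. It ran from 313 to 1973 over the 10 such fits, beside 891 with every library.

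Dbp ranged from 17.0 to 22.7 CPM in Natural and from 13.0 to 23.3 CPM in IVF fetal ovaries, and Arntl from 5.09 to 9.47 CPM and from 3.66 to 8.52 CPM. The other 6 members had log2 differences from -0.42 for Nr1d1 to 0.25 for Cry1. Erythroid genes, a sign of blood in the sample, summed to 598 to 1600 CPM in Natural and 1600 to 4580 CPM in IVF ovaries, with 5 of 5 higher, 2 of them called by edgeR, and none at 0. Oocyte genes summed to 91.9 to 374 CPM and 23.3 to 147 CPM, with 6 of 6 tested genes lower and 2 called by edgeR. Of the 7 oocyte genes 1 was at 0 in every Natural library and 1 in every IVF library. Fetal germ cell genes summed to 171 to 605 CPM in Natural and 152 to 358 CPM in IVF ovaries. Of the 6 tested, 3 were higher and 3 lower, and edgeR called 1, a lower one. The study counted germ cells at E18.5 and reported no difference between the groups. The part of these cells in the members' values was not tested.

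For the IVF difference at 12 weeks minus that at E18.5 edgeR called no member, in a test that called 0.314% of genes. An unadjusted p below 0.05 was found for 6 members, beside 14.0% of genes. The largest value was that of Dbp, at 1.81 with a standard error of 0.43 (edgeR adjusted p = 0.0657), then Nr1d1 at 1.33 (edgeR adjusted p = 0.118). Cry1 was at -0.68 (edgeR adjusted p = 0.114).

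Levels over age in Natural ovaries share the 12-week Natural libraries with the tests above, and are given beside them. Each age was deposited as a table of its own and the labels name no batch, so age and whatever else set the tables apart cannot be told apart in these levels. From E18.5 to 12 weeks edgeR called 6 of the 10 members, where it called 49.7% of genes. Arntl rose by 1.59 with a standard error of 0.27, Npas2 by 1.44 (0.41), Clock by 0.79 (0.15), Nr1d1 by 2.3 (0.30) and Nr1d2 by 1.29 (0.19) on the log2 scale, with adjusted p-values from 7.60e-07 to 0.00537. Per3 fell by 1.03 (adjusted p = 0.000629). Dbp, at 0.61, and Per2, at 0.63, were not called. Dbp was called without 12-week Natural replicate 1, at 0.82 (edgeR adjusted p = 0.0402), and Per2 without E18.5 Natural replicate 3, at 0.89 (edgeR adjusted p = 0.0288). Over the 8 fits with 1 library left out edgeR called 9017 to 9535 of all genes.

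From 12 to 39 weeks edgeR called 7 members in Natural ovaries, beside 21.6% of genes. Per3 rose by 1.84 with a standard error of 0.23 and stood at place 10 of 19724 genes by p (adjusted p = 2.39e-05). Dbp rose by 2.05 (SE 0.32), Nr1d2 by 1.35 (SE 0.18) and Nr1d1 by 1.32 (SE 0.27), with edgeR adjusted p-values of 0.000165, 5.84e-05 and 0.00183. Npas2 fell by 1.92 (SE 0.39), Arntl by 0.81 (SE 0.25) and Cry1 by 0.73 (SE 0.14), with edgeR adjusted p-values of 0.00144, 0.0202 and 0.000915. The call of Arntl was lost without 12-week Natural replicate 1 (adjusted p = 0.0684) or replicate 2 (0.0502), or without 39-week Natural replicate 5 (0.0699). The epithelial genes summed to 3520 to 7820 CPM in 12-week and 54.0 to 232 CPM in 39-week Natural ovaries. Luteal genes summed to 6430 to 14800 and 10800 to 18800 CPM, and granulosa genes to 1270 to 1730 and 680 to 1620 CPM. The part of these cells in the members' changes with age was not tested.

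On 1 scale set across the 29 ovary libraries, Dbp was lowest in E18.5 IVF ovaries at 15.7 ± 3.63 CPM (SD, n = 6), followed by E18.5 Natural at 18.4 ± 1.64 (SD, n = 4), 12-week Natural at 28.0 ± 14.7 (SD, n = 4), 12-week IVF at 83.5 ± 28.8 (SD, n = 5), 39-week IVF at 87.9 ± 35.9 (SD, n = 5) and 39-week Natural at 116 ± 32.2 (SD, n = 5). Of these neighbours, 12-week Natural and 12-week IVF alone did not overlap. Npas2 was highest in 12-week Natural ovaries at 14.1 ± 3.76 CPM (SD, n = 4) and lowest in 39-week Natural ovaries at 3.71 ± 1.78 CPM (SD, n = 5), with 12-week IVF at 6.19 ± 2.22 (SD, n = 5) and 39-week IVF at 7.39 ± 4.60 (SD, n = 5) between them, and all its neighbours overlapped. Cry1 was lowest in 39-week Natural ovaries at 16.6 ± 2.65 CPM (SD, n = 5) and highest in E18.5 IVF ovaries at 34.4 ± 4.35 CPM (SD, n = 6). Per3 was lowest in 12-week Natural ovaries at 20.4 ± 7.23 CPM (SD, n = 4) and highest in 39-week Natural ovaries at 73.4 ± 19.1 CPM (SD, n = 5), where its range was above that of the next group. Nr1d2 ran from 25.2 ± 4.99 CPM (SD, n = 4) in E18.5 Natural to 157 ± 13.1 CPM (SD, n = 5) in 39-week Natural ovaries, and in it 12-week and 39-week IVF ovaries, at 116 ± 22.1 and 107 ± 29.1 CPM (SD, n = 5 each), were neighbours that overlapped. Arntl ran from 6.22 ± 1.60 CPM (SD, n = 6) in E18.5 IVF to 20.2 ± 3.18 CPM (SD, n = 4) in 12-week Natural ovaries, and Nr1d1 from 7.87 ± 1.25 CPM (SD, n = 6) in E18.5 IVF to 133 ± 16.5 CPM (SD, n = 5) in 39-week Natural ovaries. Clock ran from 52.1 ± 13.6 CPM (SD, n = 4) in E18.5 Natural to 110 ± 20.5 CPM (SD, n = 5) in 39-week IVF ovaries, Per1 from 75.2 ± 18.1 CPM (SD, n = 5) in 12-week IVF to 103 ± 32.3 CPM (SD, n = 6) in E18.5 IVF ovaries, and Per2 from 18.4 ± 6.94 CPM (SD, n = 4) in E18.5 Natural to 36.8 ± 15.0 CPM (SD, n = 5) in 39-week Natural ovaries. Over all members 44 of 50 neighbouring pairs of groups overlapped.

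Of the other 24 clock genes edgeR called 7 from 12 to 39 weeks in Natural ovaries, where it called 21.6% of all genes, and 16 from E18.5 to 12 weeks, where it called 49.7%. From 12 to 39 weeks 5 rose, namely Hlf by 1.71, Tef by 1.21, Bhlhe41 by 1.01, Wee1 by 0.71 and Btrc by 0.44, and 2 fell, Usp2 by 1.06 and Noct by 0.74. From E18.5 to 12 weeks 5 rose, among them the repressor Bhlhe40 by 2.99, Nampt by 1.68, the activator Rora by 1.34 and Cry2 by 0.54. Over that time 11 fell, from Rorb at -3.32, Fbxl21 at -1.83, Wee1 at -1.67, Timeless at -1.33, Hlf at -1.24, Bhlhe41 at -1.17 and Ciart at -1.08 to Csnk1e at -0.63, Btrc at -0.58, Tipin at -0.57 and Nono at -0.35.

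How the 2 arms of the loop stood to each other was given for each library as the mean log2 CPM of Arntl and Npas2 minus that of Dbp, Nr1d1, Per1, Per2 and Per3. At 12 weeks this contrast was -0.31, -0.60, -1.61 and -1.77 in Natural ovaries and -2.67, -2.20, -3.23, -2.79 and -2.27 in IVF ovaries. Every IVF ovary was below every Natural one, and the means of -1.07 ± 0.72 (SD, n = 4) and -2.63 ± 0.42 (SD, n = 5) were 1.56 apart. At 39 weeks it was -2.85, -3.65, -4.14, -3.06 and -4.35 in Natural ovaries and -2.27, -3.44, -2.60, -3.05 and -1.74 in IVF ovaries. The means were -3.61 ± 0.65 and -2.62 ± 0.67 (SD, n = 5 each), with overlap. At E18.5 the means were -2.16 ± 0.09 (SD, n = 4) and -2.33 ± 0.39 (SD, n = 6). The Natural means of the adult ages were farther apart than the IVF means. The contrast is made of the members themselves and carries no test.

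**Figure D3:**
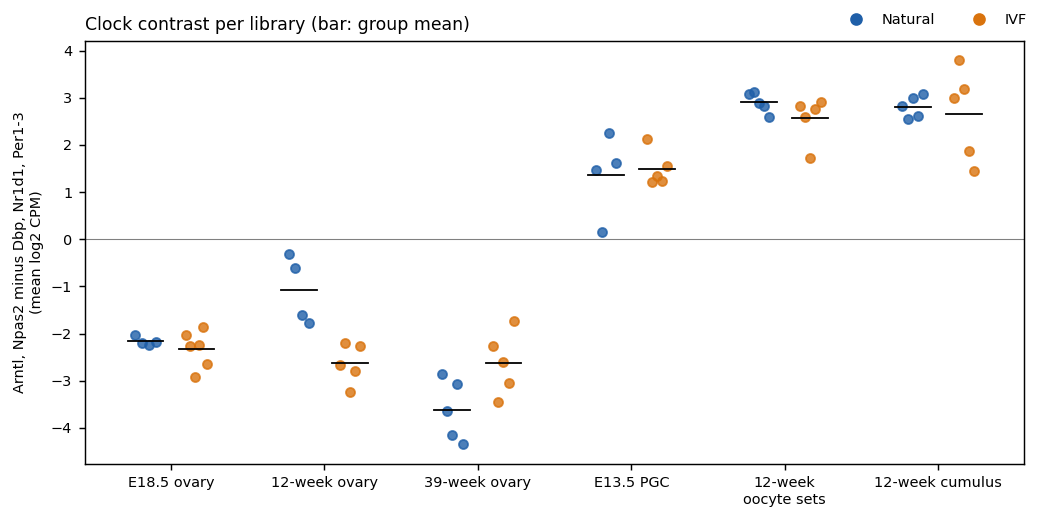
Mean log2 CPM of Arntl and Npas2 minus the mean of Dbp, Nr1d1, Per1, Per2 and Per3 (those that passed the expression filter) in each library of 6 tables, Natural in blue, IVF in orange, group mean as a bar. At 12 weeks the IVF ovaries sat between -3.23 and -2.20 and the Natural ovaries between -1.77 and -0.31. Levels are comparable within a table but not between tables that kept different genes.

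Across libraries of 1 age, Arntl was tested for its relation to each other member that passed the filter, 49 relations over 6 tables, and none was called after adjustment. Arntl and Npas2 had the highest coefficients. At 12 weeks Pearson's r was 0.854 and Spearman's rho 0.867 over 9 libraries (exact permutation p = 0.00348 and 0.00451, adjusted p = 0.0852 and 0.111). Without the 2 libraries farthest from the median of Arntl r was 0.791, and after the group means were removed it was 0.651. At 39 weeks r was 0.867 and rho 0.830 over 10 libraries (permutation p = 0.00132 and 0.00442, adjusted p = 0.0647 and 0.111), with 0.757 without the 2 farthest libraries and 0.820 after the group means were removed. At E18.5 r was -0.04 and rho -0.07 (permutation p = 0.908 and 0.863), and r turned to 0.185 without the 2 farthest libraries.

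Arntl and Dbp had negative coefficients at each age. At 12 weeks r was -0.674 and rho -0.767 over 9 libraries (exact permutation p = 0.0466 and 0.0214, adjusted p = 0.254 and 0.262), and without the 2 libraries farthest from the median of Arntl r was -0.915. After the group means were removed r at 12 weeks was -0.153 (exact permutation p = 0.676). This value includes the shallow IVF replicate 4, which lay below the line of the other libraries. A relation within the groups of that age was therefore neither called nor excluded over these 9 libraries. At 39 weeks r was -0.413 and rho -0.515 (permutation p = 0.237 and 0.134), and at E18.5 r was -0.575 and rho -0.564 (permutation p = 0.0804 and 0.0980). With the group means removed r was -0.238 at 39 weeks (permutation p = 0.599) and -0.683 at E18.5 (permutation p = 0.0392, adjusted p = 0.468). The genes set beside Dbp in the contrast did not keep 1 sign. At E18.5, 12 and 39 weeks r with Arntl was 0.490, -0.288 and 0.176 for Nr1d1 and -0.826, 0.036 and 0.223 for Per1. It was -0.239, 0.097 and -0.541 for Per2 and 0.096, -0.706 and -0.625 for Per3. With the group means removed Nr1d1 was at 0.509, 0.397 and 0.489.

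**Figure D4:**
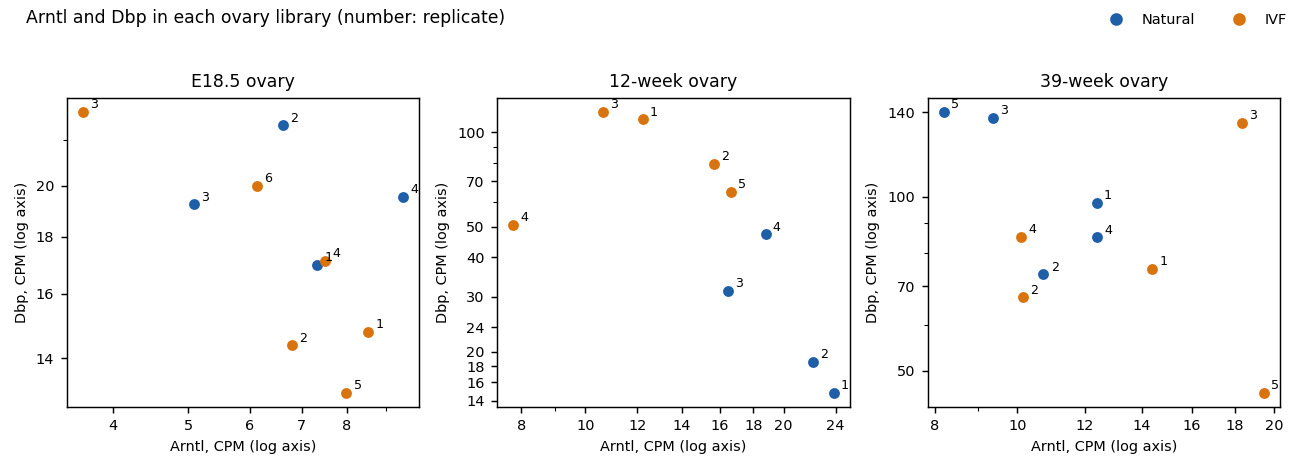
Dbp against Arntl in CPM on log axes for each ovary library, 1 panel per age, Natural in blue and IVF in orange, with the replicate number beside each point. At 12 weeks 8 of the 9 libraries fell from the upper left to the lower right and IVF replicate 4, the shallowest library, with 7.78 CPM of Arntl and 50.7 CPM of Dbp, lay below them.

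Genes whose levels varied most like Arntl were found over 29 ovary libraries after each gene was centred within its age and conception group. Among 15359 genes these were Trp53inp2 with r = 0.709, Rras2 with 0.692, Gm6158 with 0.692, 1700123O20Rik with 0.686, Rasa3 with 0.684, Pex3 with 0.673, Pde6d with 0.668 and Rnft1 with 0.667. The most opposite were Zcchc3 with -0.741, N4bp3 with -0.732, Smarcal1 with -0.694, Egflam with -0.684, Col9a2 with -0.661, Rmrp with -0.657, Ssc4d with -0.656 and Myo6 with -0.653. Of the members, Npas2 was closest to Arntl at 0.531, in place 119 from the top, followed by Nr1d1 at 0.444 and Clock at 0.389. Per2, at -0.322, and Dbp, at -0.283, were the farthest. The libraries share depth and tissue composition, so these are descriptions.

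Counting could mix neighbours at 3 loci. Exons of Dbp (chr7:45705088-45710203, plus strand) share 539 bases, 18.0% of its exon length, with Sphk2 on the opposite strand, and those of Nr1d1 (chr11:98767932-98775333, minus strand) share 263 bases, 8.55%, with Thra, the thyroid hormone receptor gene. Arntl (chr7:113207465-113314126, plus strand) shares 33 bases with the antisense gene Gm45355. Sphk2 had log2 differences of 0.08 at 12 weeks and 0.21 at 39 weeks and Thra of 0.08 and 0.12, none of them called by edgeR. The kit for ovaries marks strand, but whether counting used it is not given in the sources used here.

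In the germ cells and cumulus cells no member was called in any IVF comparison, by edgeR or by DESeq2. In cumulus cells DESeq2 gave no adjusted p for Per3, Cry1 and Nr1d1, so it could not call them. Markers of the labelled cells were present, as 7 oocyte genes summed to 14500 to 28800 CPM in 12-week oocyte sets, 7 fetal germ cell genes to 2870 to 8710 CPM in PGCs and 6 granulosa genes to 931 to 1910 CPM in cumulus cells. Across genes, levels are compared here only per kilobase of exon, as CPM per kb.

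Cry1, the repressor, was far above the other members in oocytes. At 12 weeks it measured 171 ± 6.29 CPM per kb in Natural and 152 ± 25.9 CPM per kb in IVF donor sets (SD, n = 5 each). Arntl was next at 25.1 ± 4.94 and 21.2 ± 2.42 CPM per kb, and Clock followed at 6.24 ± 0.93 and 6.26 ± 2.10 CPM per kb (SD, n = 5 each). Per2, at 0.206 ± 0.0449 and 0.202 ± 0.0799, and Dbp, at 0.0739 ± 0.155 and 0.120 ± 0.0944 CPM per kb, were the lowest. In ovaries of 12 and 39 weeks Nr1d1 was the highest member in every group, from 17.4 to 39.8 CPM per kb in group means, and Arntl was ninth of 10. The tables come from different library protocols, and the levels stand side by side without a test.

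For the test at 12 weeks the oocytes were summed by donor set, read from the library names, into 5 Natural and 5 IVF sets with totals from 19624072 to 58259515 counts. No label says that a set is an animal. Each set shares the first field of its name with another of its group, so the sets may not be independent. Of the members 9 passed the filter, Dbp did not, and none was called, beside 0.0277% of 14444 genes. Cry1 measured 571, 559, 606, 554 and 558 CPM in Natural sets and 583, 560, 365, 493 and 537 CPM in IVF sets. IVF set 3 was the low one, IVF sets 1 and 2 lay within the Natural range, and the log2 difference was -0.17 with a standard error of 0.13 (edgeR p = 0.222, adjusted p = 0.880). Arntl measured 219, 230, 194, 150 and 152 CPM in Natural sets and 177, 160, 129, 164 and 165 CPM in IVF sets, which overlapped, a log2 difference of -0.25 with a standard error of 0.15 (edgeR p = 0.123). The lowest p of a member was that of Nr1d1, at 0.49 with a standard error of 0.25 (edgeR p = 0.0757, adjusted p = 0.776).

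The labels name no animal for the 39-week oocytes, so each group is 1 sample and no test was made. The 7 oocyte genes summed to 16700 to 46000 CPM in 7 of the 9 Natural and 20500 to 41900 CPM in the 10 IVF oocytes, but to 2460 CPM in Natural oocyte 6 and 4580 CPM in Natural oocyte 9. Erythroid genes reached 21300 CPM in a Natural and 28500 CPM in an IVF oocyte, with medians of 1810 and 153 CPM. Levels are therefore given with and without Natural oocytes 6 and 9, a choice made after their marker levels were seen. In this account of 39-week oocytes the CPM of the members are scaled by the plain totals, without TMM factors. The marker sums just given keep the TMM factors. Intervals are exact 95% Poisson intervals on summed counts that cover counting error only.

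Cry1 was at 289 CPM (286 to 293) in 9 Natural and 351 CPM (348 to 354) in 10 IVF oocytes, with single oocytes from 153 to 361 CPM and from 199 to 430 CPM. Without the 2 low oocytes the Natural value was 289.5 CPM (286 to 293). Arntl was at 146 CPM (144 to 148) and 130 CPM (128 to 131), and without them at 115 CPM (113 to 118) in Natural oocytes, so that the order of the groups turned. Clock was at 72.6 CPM (71.0 to 74.2) and 42.8 CPM (41.8 to 43.8), and without them at 46.4 CPM (44.8 to 47.9). Single oocytes overlapped for each of these genes.

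Per3 was at 44.1 CPM (42.8 to 45.3) and 20.3 CPM (19.6 to 20.9), with single oocytes from 12.9 to 119 and from 7.86 to 42.5 CPM, and without Natural oocytes 6 and 9 it was at 24.7 CPM (23.6 to 25.9). Per2 was at 0.297 CPM (0.203 to 0.419) and 2.29 CPM (2.08 to 2.53), and had a count in 5 of 9 and 8 of 10 oocytes. Dbp had no count in 107931940 counts of the Natural oocytes, which allows up to 0.0278 CPM at a limit of 3 counts, and 9 counts in 2 of the 10 IVF oocytes, 0.0502 CPM (0.0230 to 0.0954). Npas2 was at 33.1 and 43.7 CPM over all oocytes, with 2 and 4 counts in Natural oocytes 6 and 9, and without these at 46.2 CPM (44.7 to 47.8) in Natural oocytes, above the IVF value. Per1 was at 38.1 and 46.1 CPM, and without them at 43.0 CPM. Nr1d1 was at 17.4 and 17.7 CPM, and without them at 15.3 CPM, and Nr1d2 was at 1.20 and 2.28 CPM, and without them at 1.68 CPM. The ranges of single oocytes overlapped for all 4.

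In PGCs of E13.5, before any ovarian follicle exists, Nr1d2 was the highest member at 21.2 ± 6.41 CPM per kb (SD, n = 4) in Natural and 21.3 ± 3.09 CPM per kb (SD, n = 5) in IVF libraries, followed by Cry1 at 18.6 ± 7.14 and 16.7 ± 5.15 CPM per kb. Npas2 did not pass the filter, with 0 to 3.45 CPM over both groups. None of the 9 tested members was called, in a comparison in which 0 of 12763 genes were called by edgeR and 0 by DESeq2, and 349 had an unadjusted p below 0.05, none of them a member. Arntl measured 15.3, 11.2, 15.5 and 14.5 CPM in Natural and 21.5, 17.5, 17.4, 14.1 and 20.6 CPM in IVF libraries, with 4 of the 5 IVF libraries above all Natural ones, and a log2 difference of 0.37 with a standard error of 0.25 (edgeR p = 0.169). Per3 measured 48.2, 270, 20.9 and 22.0 CPM in Natural libraries, of which replicate 2 stood apart, and 40.4, 98.2, 83.6, 41.6 and 64.1 CPM in IVF libraries. Its log2 difference was -0.47 with a standard error of 0.66 over all libraries and turned to 1.13 without Natural replicate 2 (adjusted p of 0.196 or more in every fit with 1 library left out).

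In cumulus cells Arntl was the highest member at 3.54 ± 0.613 and 3.40 ± 0.997 CPM per kb (SD, n = 5 each), followed by Nr1d2 at 3.08 ± 0.841 and 2.51 ± 1.10 CPM per kb. Npas2, Per2 and Dbp did not pass the filter, at no more than 2.15 CPM in any library. The 7 tested members had log2 differences from -0.34 for Nr1d2 to 0.58 for Per3 and unadjusted edgeR p-values from 0.173 to 0.889, and none was called, beside 0.00973% of 10280 genes. Natural replicate 5, whose library name shares fields with IVF oocytes, could be left out without a member being called. With 2532824 to 6345249 counts per library, low members such as Per3, at 0.430 to 4.27 CPM, could be measured only coarsely.

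**Figure D5:**
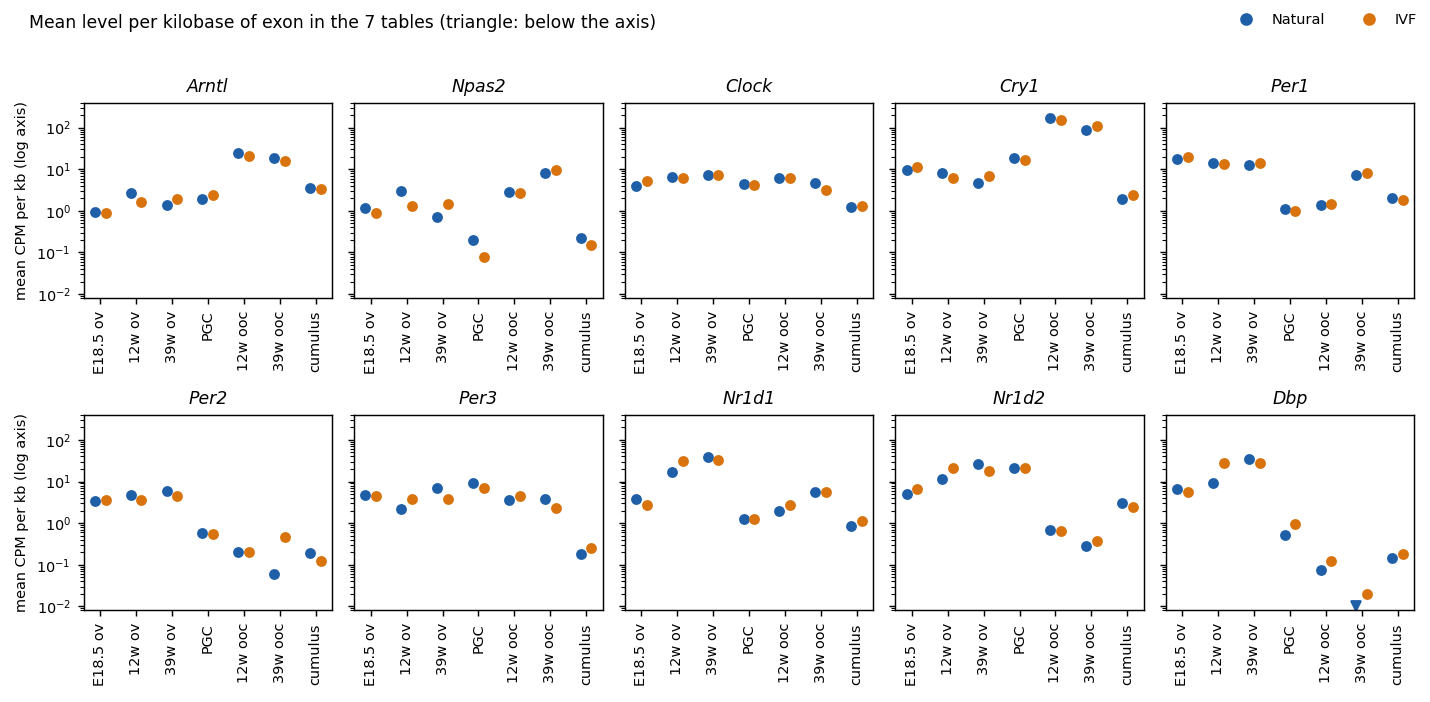
Mean CPM per kb of exon on a log axis for each clock gene in Natural (blue) and IVF (orange) groups of the 7 tables (ov, ovary; ooc, oocyte). Cry1 and Arntl were at 171 and 25.1 CPM per kb in 12-week Natural oocytes, and Dbp, at 35.7 CPM per kb in 39-week Natural ovaries, had no count in 39-week Natural oocytes (triangle).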

How the data were processed

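The authors trimmed reads, aligned them to mm10 with STAR 2.3.0e and counted them per gene with featureCounts 1.5.0, and deposited raw counts per gene and library in 7 tables. The submitters' processing notes name Trimmomatic 0.32 for every sample, whereas the study's methods name Trim Galore for the PGC, oocyte and cumulus libraries. Ovary libraries were made from tissue with a stranded mRNA kit. PGC, oocyte and cumulus libraries were made with a modified SMART-seq protocol without molecular identifiers. Of the 151 samples, 143 have a column in these tables, and 8 cumulus samples were not analysed here. Between 65.1% and 78.4% of low counts (1 to 50) were even, so that reads are not fully independent and counting intervals are too narrow.

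Counts were filtered (filterByExpr), scaled (TMM) and tested per table with edgeR 4.0.16 in R 4.3.3 (glmQLFit, glmQLFTest), adjusted by Benjamini-Hochberg over all genes tested and called below 0.05. Changes with age came from 1 fit of all 29 ovary libraries. For 12-week oocytes, counts were added up within each donor set, and 2 styles of cumulus library name were held as a covariate. Log2 values used a prior count of 2. Alternatives were DESeq2 1.42.0, RLE factors, no filter, a replicate block and each library left out (87 fits), and the scripts were tested on simulated data. Genes were placed with GENCODE vM21 on GRCm38, the build of mm10, and promoters came from RefSeq on GRCm38.p6. Among other genes, the text names those clock genes that were called, except 1 not reported here, and the 8 most and least like Arntl. The members, lists and tests were chosen with earlier results of these data known.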

Additional observations from a re-analysis of the deposited data

Results flagged for a closer look

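In 5 members the difference between IVF and Natural ovaries at 39 weeks differed from that at 12 weeks by the edgeR test of that difference across all genes. The values on the log2 scale, 39 weeks minus 12 weeks, were 2.16 for Npas2, -1.76 for Per3, 1.07 for Cry1, -1.46 for Nr1d2 and -1.98 for Dbp.

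In 10 of 115 groups of 4 to 6 libraries whose highest count was at least 10, a single library stood apart from the others for a member by Dixon's criterion, which chance meets in about 1 in 20 groups. In 12-week ovaries these were Natural replicate 3 with 47.0 CPM of Per2 and IVF replicate 4, the shallowest library, with 46.0 CPM of Nr1d1. In 39-week ovaries they were IVF replicate 5 with 132.8 CPM of Clock and Natural replicate 5, the one given as 40 weeks in part of its labels, with 98.2 CPM of Per3. In PGCs, Natural replicate 2 stood apart for 3 members, with 269.9 CPM of Per3, 3.45 CPM of Npas2 and 2.95 CPM of Dbp, and IVF replicate 2 with 7.57 CPM of Per2. In 12-week oocytes they were IVF set 3 with 136.7 CPM of Clock and Natural set 5 with 1.05 CPM of Dbp.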

How the results depend on the processing

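No member was called by edgeR in an IVF comparison under RLE factors, without the filter or under the replicate block. Counts of called genes changed more. DESeq2 called 1924 genes in E18.5 ovaries, 656 at 12 weeks with 4 members, 1229 at 39 weeks with 3 members, 46 in oocyte sets, 30 in cumulus cells, 1535 for the difference between 39 and 12 weeks and 347 for that between 12 weeks and E18.5 with 3 members. Without the filter on low counts edgeR called 9 genes at 12 weeks, 28 at 39 weeks, 19 in oocyte sets and 104 in cumulus cells. RLE factors gave 29 genes for 12 weeks minus E18.5, and no library set covariate gave 0 in cumulus cells. The contrast of Arntl minus Dbp alone was -2.38 at 12 weeks. The cause of these changes was not tested.

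Natural and IVF libraries share only a number. Correlations of same-numbered libraries ran from -0.357 to 0.536, and in no table did every library correlate best with its own number. With the replicate number as a block edgeR called 3 genes at E18.5, 0 at 12 weeks, 24 at 39 weeks, 24 in cumulus cells, 1 for 12 weeks minus E18.5 and 7 for 39 weeks minus 12 weeks, of which 0 were members (Npas2 2.20, Per3 -1.92, Cry1 1.12, Nr1d2 -1.49 and Dbp -2.21, adjusted p from 0.0649 to 0.0949). In PGCs the block turned Per2 to 0.33, Per3 to 0.27 and Nr1d1 to 0.085.

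Other reversed signs were of values near 0, namely Nr1d1 in PGCs without the filter (0.0028), Clock in oocyte sets with DESeq2 (-0.020), RLE factors (-0.020) or no filter (-0.029), and Clock in cumulus cells without the covariate (0.016). Of the 10 levels of 39-week Natural oocytes, those of 7 members moved past their counting interval without 2 oocytes, as given above. Pearson's r of Arntl and Npas2 at E18.5 turned to 0.185 without the 2 extreme libraries.

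With each library left out in turn, called genes ran from 313 to 1973 at E18.5 (members 0 to 2), 1 to 5 at 12 weeks, 0 to 123 at 39 weeks, 1 to 8 in oocyte sets, 1 to 5 in cumulus cells, 80 to 1111 for 39 weeks minus 12 weeks (members 4 to 6) and 0 to 96 for 12 weeks minus E18.5. Differences of the clock contrast ran from -0.257 to -0.0458 at E18.5, -1.80 to -1.31 at 12 weeks, 0.773 to 1.20 at 39 weeks, -0.282 to 0.417 in PGCs, -0.423 to -0.126 in oocyte sets and -0.434 to 0.154 in cumulus cells. Log2 differences that crossed 0 ran, at E18.5, from -0.22 to 0.086 for Arntl, -0.032 to 0.23 for Per1, -0.036 to 0.38 for Per2 and -0.12 to 0.076 for Per3. In adult ovaries they ran from -0.23 to 0.029 for Per1 at 12 weeks, and from -0.097 to 0.059 for Clock and -0.037 to 0.36 for Per1 at 39 weeks. In PGCs they ran from -0.25 to 0.14 for Clock, -0.67 to 0.74 for Per2, -0.79 to 1.13 for Per3, -0.36 to 0.062 for Cry1, -0.22 to 0.18 for Nr1d1 and -0.18 to 0.13 for Nr1d2. In oocyte sets they ran from -0.23 to 0.088 for Clock, -0.26 to 0.074 for Npas2, -0.23 to 0.11 for Per2 and -0.33 to 0.14 for Nr1d2, and in cumulus cells from -0.21 to 0.018 for Arntl, -0.15 to 0.25 for Clock, -0.52 to 0.028 for Per1 and -0.071 to 0.74 for Nr1d1. Between ages they ran from -0.20 to 0.00016 for Cry1 (Natural, 12 weeks against E18.5), -0.21 to 0.066 for Per1 (Natural, 39 weeks against 12 weeks) and -0.33 to 0.28 for Per2 (IVF difference, 39 weeks minus 12 weeks). Low levels limit what can be read for Dbp and Per2 in oocytes. In cumulus cells low levels and depth limit Npas2, Per2, Per3 and Dbp.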

Other observations

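Genes that follow body temperature, one of the signals that set clocks in tissues, were read in the same ovaries. Of 5 such genes none was called by edgeR at 12 or 39 weeks. DESeq2 called 1 lower at E18.5, 1 lower at 12 weeks and 2 higher at 39 weeks in IVF ovaries. At 39 weeks 4 had an unadjusted p below 0.05, beside 19.2% of all genes, and each was higher in IVF ovaries. The heat shock genes among them were Hspa1b, with a log2 difference of 1.79 (SE 0.62), Hspa1a with 1.29 (SE 0.48) and Hsph1 with 0.77 (SE 0.33). The other was the cold-induced RNA-binding gene Rbm3 with 0.51 (SE 0.15). At 12 weeks Hsph1 was at -0.59 (SE 0.16, edgeR p = 0.00429, adjusted p = 0.180), and the cold-induced genes Cirbp, at 0.38 (SE 0.14), and Rbm3, at 0.29 (SE 0.11), also had an unadjusted p below 0.05. Of all genes 14.4% had such a p at 12 weeks. The median over the 5 genes was -0.04 at 12 weeks and 0.77 at 39 weeks, beside 0.01 and 0.03 over all genes. It pools heat shock genes with cold-induced ones, so it gives no direction of temperature. At E18.5 Hspa1b fell by 1.08 (SE 0.29, edgeR adjusted p = 0.0476).

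Of 8 glucocorticoid targets, such as Fkbp5 and Tsc22d3, none was called by edgeR in ovaries at any age, and DESeq2 called 1 higher at E18.5 and 1 higher at 39 weeks. None had an unadjusted p below 0.05 at 12 weeks and 2 did at 39 weeks, both higher in IVF ovaries, with medians of -0.10 and 0.13. Of 10 immediate early genes, which respond within minutes to handling and stimulation, edgeR called none either, and DESeq2 called 1 lower at E18.5 and, at 39 weeks, 1 higher and 2 lower. At an unadjusted p below 0.05, 5 were lower at E18.5, 1 was lower at 12 weeks, and at 39 weeks 3 were higher and 2 lower, with medians of -0.41, -0.15 and 0.19. Over all genes 24.1%, 14.4% and 19.2% had such a p at E18.5, 12 and 39 weeks. The relation of these genes to the clock genes was not tested.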
